A study of Mus musculus with 11 samples.

Results

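The genes described here are 41 subunits of ATP-dependent chromatin remodelling complexes, taken by their symbols out of the 23284 genes listed for every library. All 41 were present. They comprise 21 subunits of SWI/SNF (also called BAF), 12 genes of NuRD (its partner Sall4 included), 4 further CHD enzymes, the ISWI enzyme Smarca5, and 3 enzymes of the INO80 and TIP60 complexes. RNA was measured in mouse embryonic stem cells (ESCs) grown on gelatin in serum with leukaemia inhibitory factor, either wild type (WT) or lacking Tet1, Tet2 and Tet3 (triple knock-out, TKO, a line generated earlier). Both genotypes were sampled untreated (0 h) and following 4 h of exposure to α-amanitin at 10 µg/ml, which blocks RNA polymerase II, with 2 ribodepleted libraries in each of the 4 groups. The remaining group held 3 WT libraries of polyadenylated RNA. The design asks how the loss of the Tet enzymes, the block of transcription and their combination change transcript levels. The study describes the α-amanitin experiment as done in biological duplicate, while the labels say nothing of separate cultures, so p-values measure the spread between these libraries. A single TKO line stands for the genotype.

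Remodellers use ATP to slide, eject or exchange nucleosomes. SWI/SNF complexes carry 1 of 2 alternative ATPases, Smarca4 (BRG1) or Smarca2 (BRM), and many of their other positions can be filled by alternative paralogs. The ESC form of BAF is known for its use of Smarca4, Smarcc1 and Actl6a. NuRD couples a CHD ATPase to the histone deacetylases Hdac1 and Hdac2. Its subunit of the methyl-CpG-binding domain family is either Mbd3 or Mbd2. Mbd3 is known for its role in the exit of ESCs from self-renewal.

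Recovered reads numbered 25507874 to 29781366 per ribodepleted library and 72639837 to 82129168 per polyA library. Levels below are scaled TPM, that is, deposited TPM (a level normalised for gene length and depth) divided by a size factor for each library, and differences are on the log2(scaled TPM + 1) scale. The targeted genes followed the labels for Tet1, at 118 to 143 scaled TPM in the WT ribodepleted libraries and 21.7 to 30.2 in TKO, and for Tet2. Tet3 was at 1.17 to 1.51 in all of them and did not separate the genotypes. All 6 pluripotency markers were detected in every library, with Pou5f1 at 906 or more. Their summed level was 2172 to 2315 in WT and 1428 to 1536 in TKO libraries. Nanog did not follow the sum, at 38.9 and 37.2 in WT against 40.9 and 44.6 in TKO at 0 h. The 6 fibroblast markers summed to 8.39 to 11.7 in WT and 11.8 to 14.6 in TKO, but did not move together. Col1a2 was at 1.49 to 1.95 in WT and 4.65 to 6.05 in TKO, and Dcn, at a low level, was also higher in TKO. Postn went the other way, at 0.757 or more in WT and 0.296 or less in TKO. Col1a1, Col3a1 and Thy1 overlapped between genotypes. The 5 endoderm markers summed to 2.88 to 3.51 in WT and 1.52 to 2.23 in TKO, with Afp at or near 0. Of the neural markers, Nes was at 17.3 to 19.7 in WT and 29.5 to 31.1 in TKO, and Tubb3 at 176.6 to 196.5 in WT and 132.1 to 149.2 in TKO. The part of these marker differences in the results below was not tested, and in bulk RNA fewer cells of a type cannot be told apart from less RNA per cell.

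The 3 Smarcd genes encode alternative BAF60 subunits and moved in different directions in TKO cells, as described below, so their upstream sequences are shown first. Smarcd1 lies on chromosome 15 (99532718 to 99544426, plus strand), Smarcd2 on chromosome 11 (106124493 to 106134286, minus strand) and Smarcd3 on chromosome 5 (24096636 to 24107830, minus strand) in NCBIM37 (mm9). Each line gives the 250 bases before the outermost annotated start, read 5′ to 3′ on the gene's strand, at chr15:99532468-99532717, chr11:106134287-106134536 and chr5:24107831-24108080. Capitals mark CG dinucleotides, the sites of DNA methylation that Tet enzymes act on.
Smarcd1: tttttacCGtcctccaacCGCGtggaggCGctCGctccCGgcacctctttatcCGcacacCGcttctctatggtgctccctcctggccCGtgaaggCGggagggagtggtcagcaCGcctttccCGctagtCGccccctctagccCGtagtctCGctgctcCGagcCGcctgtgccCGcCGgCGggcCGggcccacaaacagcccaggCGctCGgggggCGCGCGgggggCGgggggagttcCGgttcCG
Smarcd2: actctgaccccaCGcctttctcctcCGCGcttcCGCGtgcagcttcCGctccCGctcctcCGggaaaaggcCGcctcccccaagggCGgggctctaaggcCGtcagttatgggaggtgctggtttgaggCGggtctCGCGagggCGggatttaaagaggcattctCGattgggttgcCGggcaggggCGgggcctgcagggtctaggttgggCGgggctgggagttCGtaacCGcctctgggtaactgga
Smarcd3: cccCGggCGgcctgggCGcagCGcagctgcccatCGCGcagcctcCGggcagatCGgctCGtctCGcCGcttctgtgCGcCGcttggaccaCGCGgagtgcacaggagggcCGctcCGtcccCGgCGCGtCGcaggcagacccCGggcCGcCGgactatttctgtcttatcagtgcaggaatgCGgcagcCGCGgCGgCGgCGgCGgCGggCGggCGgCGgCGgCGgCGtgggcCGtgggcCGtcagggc
These windows held 29, 21 and 40 CG dinucleotides, counts reached or exceeded by 7.41%, 19% and 1.52% of the same windows of 22367 annotated protein-coding genes. An exon of the antisense gene model Gm17349 covers 111 bases of the Smarcd1 window. Over all 41 remodeller genes the median was 21 CG, against 8 over all windows, of which 92.5% held at least 1. Chd2 and Chd8 had none in the window before their outermost start. No methylation was measured in these libraries, and a count of CG letters says nothing about their methylation.

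Mean levels in untreated WT cells ran from 320 scaled TPM down to 0.045. In WT cells at 0 h the ISWI ATPase Smarca5 was the most abundant, at 328 and 312 scaled TPM in the 2 libraries, followed by the NuRD ATPase Chd4 at 308 and 289. The lower Smarca5 library and the higher Chd4 library lay close together, nearer than the 2 libraries of either gene. The actin-related SWI/SNF subunit Actl6a was at 262 and 268. The transcription factor Sall4, a NuRD partner, was at 197 and 185. Among SWI/SNF subunits, Smarcb1 (the core subunit SNF5) was at 130 and 137, Smarcc1 at 116 and 109.9, and the ATPase Smarca4 at 100.5 and 92.5.

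The chromodomain enzymes outside NuRD lay between Chd4 and Chd3, the NuRD enzyme at 11.5 and 10.2. Chd1 was at 88.6 and 80.6, Chd8 at 51.5 and 48.9, Chd2 at 41.8 and 37.3, and Chd7 at 22.8 and 19.5. Ino80, the ATPase of the INO80 complex, was at 48.6 and 45.5, the TIP60 acetyltransferase Kat5 at 45.1 and 45.4, and the TIP60 ATPase Ep400 at 28.8 and 25.3. Chd8, Ino80, Smarcd2 (44.4 and 46.8), Kat5 and Dpf2 (43.0 and 42.1) therefore formed a run in the order in which neighbours lay within a few TPM of each other.

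The least abundant members were 3 SWI/SNF paralogs. Smarca2 was at 0.35 and 0.46 in WT at 0 h, Dpf3 at 0 and 0.16, and Actl6b, the neuronal counterpart of Actl6a, at 0.045 in both. Actl6b had at most 3 recovered reads and Dpf3 at most 5 in any ribodepleted library, so neither could be compared between groups at this depth. These 3 genes had a mean scaled TPM below 1 and did not enter the tests, which left 38 of the 41.

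**Figure D1:**
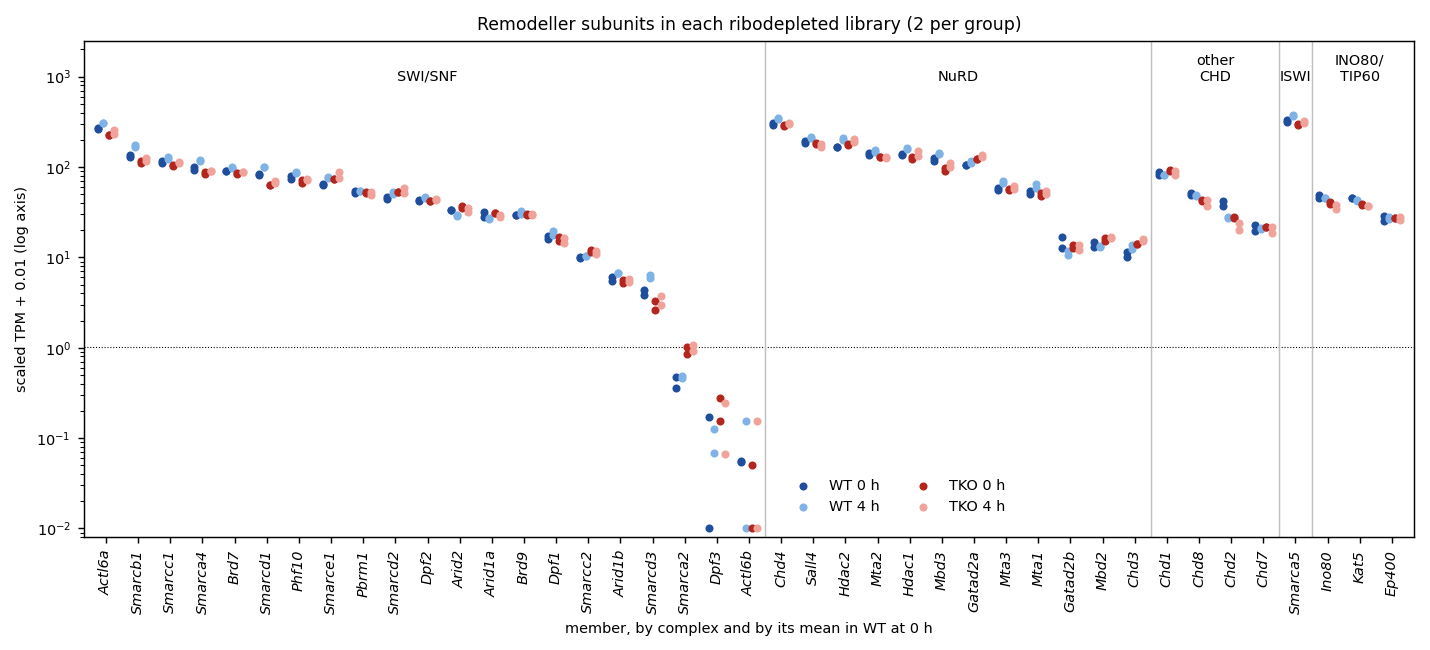
Level of each of the 41 genes in every ribodepleted library, as scaled TPM + 0.01 on a log axis, with 1 point per library and 2 libraries per group. The dotted line marks the mean level of 1 scaled TPM that was needed for testing, which Smarca2, Dpf3 and Actl6b did not reach.

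The effect of losing the Tet enzymes was read first in untreated cells. By limma, 5 of the 38 tested genes were higher in TKO than in WT and 11 were lower at an adjusted p under 0.05, and none of these changes exceeded 1.5-fold. Over all 12467 genes tested, 27.8% were higher and 28.2% lower, and 15.9% also exceeded 1.5-fold. The count of lower members was thus close to the background, whereas members that were higher made up a smaller share, 13.2%. Over the 9672 genes with a mean above 5 scaled TPM, as 37 of the members had, 26% were higher and 31.7% lower. The median change of the members was -0.065, against -0.019 over all genes and -0.042 over those above 5 scaled TPM. The split depended on scaling, with 8 higher and 5 lower on deposited TPM (33.3% and 17.6% of all genes) and 7 higher and 8 lower after quantile normalisation (27% and 29.1%). Rpph1 and Rmrp, abundant non-coding RNAs that enter the deposited TPM total, took 12.9% and 13.4% of it in WT and 12.2% in both TKO libraries at 0 h.

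In SWI/SNF, 3 of 18 tested subunits were higher and 6 were lower in TKO at 0 h. Smarcd1 was at 82.5 and 82.8 scaled TPM in WT against 64.0 and 63.4 in TKO. The libraries did not overlap, and Smarcd1 was lower by 0.37 on the log2 scale (SE 0.043, adjusted p = 1.3e-04). Its paralog Smarcd2 was at 44.4 and 46.8 in WT against 53.6 and 53.1 in TKO, a change in the other direction of 0.22 (SE 0.063, adjusted p = 0.016). Smarcd3 was at 4.38 and 3.80 in WT against 2.59 and 3.27 in TKO (log2 change -0.38, adjusted p = 0.028). All 3 kept these signs on deposited TPM and after quantile normalisation, but Smarcd3 did not pass on deposited TPM or without the filter on low values. It had 72 to 109 recovered reads per library at 0 h.

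Actl6a and Smarcb1, which are shared by several forms of SWI/SNF, were also lower. Actl6a was at 262 and 268 in WT against 224 and 226 in TKO (log2 change -0.23, SE 0.052, adjusted p = 0.0047). Smarcb1 was at 130 and 137 in WT against 117 and 110 in TKO (log2 change -0.23, adjusted p = 0.0069). The ATPase Smarca4 was at 100.5 and 92.5 in WT against 87.8 and 83.7 in TKO, with a log2 change of -0.17 (adjusted p = 0.022) that did not pass on deposited TPM or after quantile normalisation. Phf10, a subunit of the PBAF form, changed by -0.15 (adjusted p = 0.034) and was likewise not past the threshold under those scalings. The higher subunits were Smarcc2 (9.78 and 10.1 in WT, 12 and 11.5 in TKO, log2 change 0.22, adjusted p = 0.017) and Smarce1 (64.4 and 63.4 in WT, 74.1 and 73.7 in TKO, log2 change 0.21, adjusted p = 0.019). Smarcc1, the paralog of Smarcc2, was at 102 and 106 in TKO, a change of -0.12 that did not pass (adjusted p = 0.053). Arid1a, Arid1b, Dpf1, Dpf2, Pbrm1, Brd7, Brd9 and Arid2, most of which mark one form of the complex (BAF, PBAF or non-canonical BAF), lay between -0.09 and 0.12 and did not pass.

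Smarca2, which was not tested, had 31 and 40 recovered reads in WT against 100 and 73 in TKO at 0 h. Its level was 0.41 ± 0.075 scaled TPM in WT against 0.93 ± 0.13 in TKO (SD, n = 2), and no TKO library overlapped a WT library at either time. With no filter on low values its log2 change was 0.45 (SE 0.075, adjusted p = 0.00401). The level of the second ATPase in TKO thus stayed far under that of Smarca4.

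In NuRD, 2 of 12 subunits were higher in TKO at 0 h and 1 was lower. Mbd3 was at 125 and 117 scaled TPM in WT against 97.7 and 90.5 in TKO, and was lower by 0.36 on the log2 scale (SE 0.062, adjusted p = 0.0012). Mbd2, the paralog of Mbd3, was at 13.2 and 14.8 in WT against 16.2 and 15.2 in TKO, a change of 0.16 that did not pass (adjusted p = 0.081). Chd3, the less abundant NuRD ATPase, was higher (11.5 and 10.2 in WT, 14.2 and 14.0 in TKO, log2 change 0.35, SE 0.074, adjusted p = 0.0037). The predominant ATPase Chd4 changed by -0.04 (adjusted p = 0.48). The linker subunit Gatad2a was higher, at 106 and 105 in WT against 121 and 122 in TKO (log2 change 0.20, SE 0.045, adjusted p = 0.0049). Its paralog Gatad2b, at 17.0 and 12.8 in WT against 12.7 and 13.7 in TKO, did not pass (log2 change -0.15, adjusted p = 0.32). The deacetylases Hdac1 and Hdac2, the 3 Mta scaffold genes and Sall4 lay between -0.11 and 0.07 and did not pass.

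Among the other CHD enzymes, Chd2 had the largest change of the 38 genes at 0 h. It was at 41.8 and 37.3 in WT against 27.3 and 28.1 in TKO, and was lower by 0.49 (SE 0.081, adjusted p = 9.3e-04). Chd8, a CHD enzyme known for binding β-catenin, was at 51.5 and 48.9 in WT against 42.4 and 42.9 in TKO (log2 change -0.23, adjusted p = 0.023). Chd1 (0.12, adjusted p = 0.12) and Chd7 (0.04, adjusted p = 0.73) did not pass, nor did Smarca5 (-0.11, adjusted p = 0.096).

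Of the INO80 and TIP60 enzymes, Ino80 was lower (40.8 and 39.5 in TKO, log2 change -0.22, adjusted p = 0.014), as was Kat5 (39.1 and 38.0, log2 change -0.23, adjusted p = 0.0024). Ep400 was at 27.1 and 27.2 in TKO and did not pass (0.01, adjusted p = 0.92). On deposited TPM, neither Ino80, Kat5 nor Chd8 passed.

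Leaving out single libraries changed how many members passed at 0 h, and the share of all genes that passed fell as well in the fits that follow. The count was 9 without WT replicate 1, 10 without TKO replicate 1 and 9 without TKO replicate 2, against 16 with all libraries. Under every alternative tried, Smarcd1, Actl6a, Mbd3 and Chd2 stayed lower and Chd3 and Gatad2a stayed higher at an adjusted p under 0.05. Smarcb1, Smarcc2, Smarcd2 and Smarce1 did so under every alternative that kept all libraries. Smarca4, Smarcc2, Smarcd2, Smarcd3, Smarce1, Chd8 and Ino80 did not pass without WT replicate 1. The same genes, with Smarcb1 in place of Smarcd3, did not pass without TKO replicate 2. Without TKO replicate 1, Smarcc2, Smarcd2, Smarcd3, Smarce1, Phf10 and Chd8 did not pass. Part of Actl6a (16.2% of exonic bases) and of Kat5 (18%) lies in exons of Mrpl47 and Rnaseh2c on the other strand. These partners were also lower at 0 h (log2 change -0.21, adjusted p = 0.0065 for Mrpl47, and -0.23, adjusted p = 0.047 for Rnaseh2c). The largest overlap was that of Smarcd3, with 54.3% of its exonic bases in exons of Chpf2 on the other strand. Chpf2 changed in the same direction as Smarcd3 at 0 h, by -0.18, and did not pass (limma, adjusted p = 0.067). The strand setting of the counting is not given in the sources used here, so the reads of such pairs may not be fully separated.

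**Figure D2:**
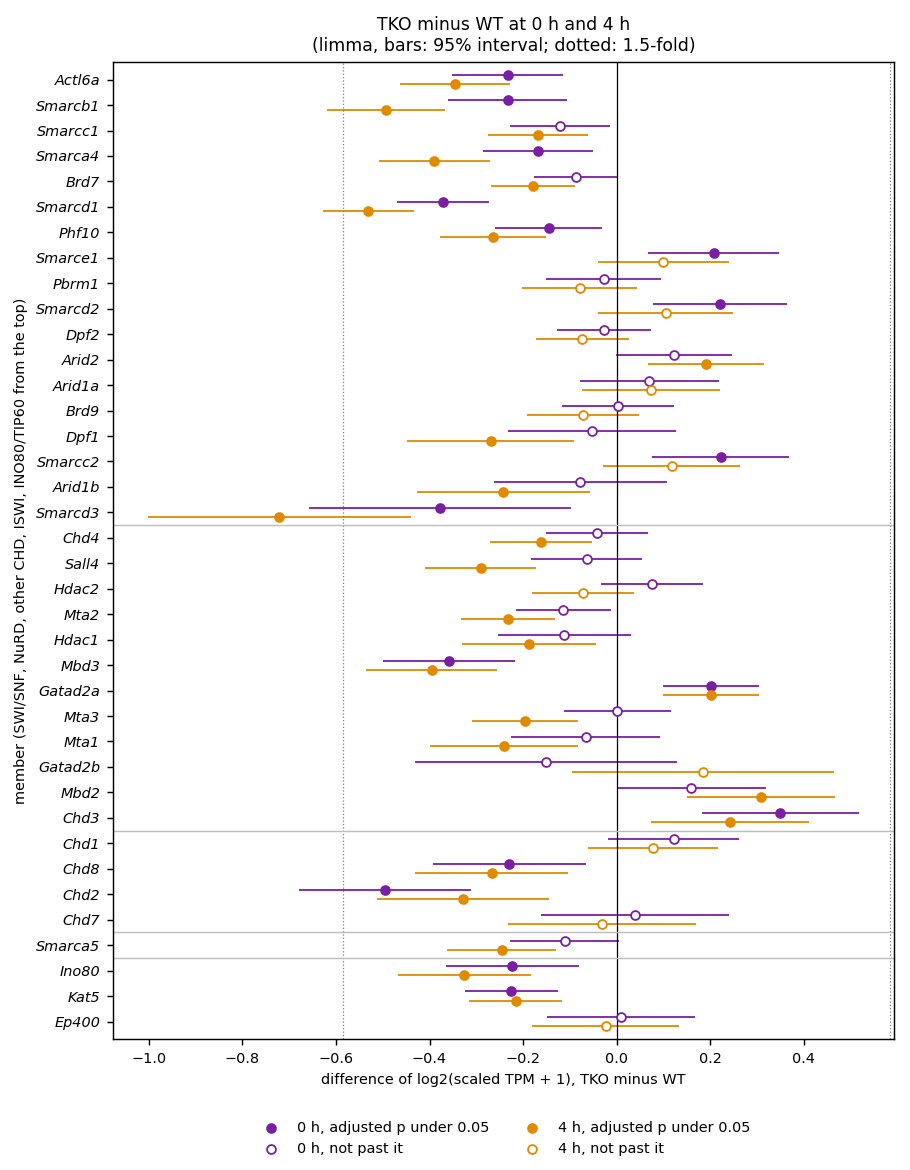
Difference of log2(scaled TPM + 1) between TKO and WT for the 38 tested genes at 0 h (purple) and 4 h (orange), with 95% intervals from limma, filled where the adjusted p was under 0.05. Smarcd3 at 4 h is the one point past the dotted lines at 1.5-fold, and 32 of the 38 genes lie further to the left at 4 h than at 0 h.

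The same comparison was made in cells that had spent 4 h in α-amanitin. It contrasts other libraries than the 0 h comparison, but both come from 1 fit with shared size factors and a shared estimate of the spread, and without TKO replicate 1 or 2 at 4 h the count at 0 h was 20. At 4 h, 4 of the 38 genes were higher in TKO and 22 were lower, against 29.1% and 30.3% of all genes tested. Over the 9672 genes with a mean above 5 scaled TPM, as 37 of the members had, 26.6% were higher and 34.9% lower. The median change was -0.18 for the members, -0.0051 over all genes and -0.040 over those above 5 scaled TPM. This split also moved with scaling, to 8 higher and 6 lower on deposited TPM (40.2% and 16.6% of all genes, at a median of 0.14), and to 7 higher and 13 lower after quantile normalisation (26.8% and 29.2%). Relative to the median of all genes, the median of the members lay at -0.18 with size factors, -0.16 on deposited TPM and -0.039 after quantile normalisation. Of the 26 members that passed at 4 h, 9 did so under every alternative that kept all libraries. They were Actl6a, Arid2, Gatad2a, Mbd2, Mbd3, Smarca4, Smarcb1, Smarcd1 and, where it was tested, Smarcd3. Leaving out WT replicate 1 at 4 h lowered the share of all genes that passed. Without WT replicate 1 at 4 h, 17 members passed.

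SWI/SNF held 10 of the 22 lower genes, or 55.6% of its tested subunits, against 57.9% of all tested members. Smarcd1 was at 99.6 and 100.5 in WT against 67.2 and 70.7 in TKO at 4 h, lower by 0.53 on the log2 scale (SE 0.043, adjusted p = 1.7e-05). Smarcb1 was at 167 and 177 in WT against 118 and 127 in TKO (log2 change -0.49, adjusted p = 1.0e-04), and Smarca4 at 121 and 117 in WT against 89.7 and 91.3 in TKO (log2 change -0.39, adjusted p = 2.5e-04). For all 3, the WT and TKO libraries lay well apart. Smarcd2 changed by 0.10 (adjusted p = 0.18) and passed as higher on deposited TPM and after quantile normalisation. The higher SWI/SNF subunit was Arid2, which defines PBAF (28.9 and 29.4 in WT, 34.8 and 32.1 in TKO, log2 change 0.19, adjusted p = 0.015). That call was lost without WT replicate 1, WT replicate 2 or TKO replicate 1 at 4 h.

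Smarcd3 was the one member past 1.5-fold at 4 h, where 5.82% of all genes were lower by that measure. It was at 5.96 and 6.41 scaled TPM in WT against 2.98 and 3.77 in TKO (log2 change -0.72, SE 0.12, adjusted p = 0.0011). The counts behind it were small, with 137 and 148 recovered reads in WT against 70 and 86 in TKO. The change was -0.42 with a pseudocount of 5 TPM, and -0.59 without TKO replicate 1 at 4 h. Chpf2 on the other strand shares 54.3% of the exonic bases of Smarcd3. Chpf2 itself did not pass at 4 h, at 8.03 and 8.99 in WT against 8.87 and 8.48 in TKO (log2 change 0.03, adjusted p = 0.78).

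In NuRD, 3 subunits were higher and 7 were lower at 4 h. Mbd3 was again lower (142 and 138 in WT, 101 and 111 in TKO, log2 change -0.40, adjusted p = 6.3e-04), and Mbd2 was higher (13.4 and 12.9 in WT, 16.9 and 16.2 in TKO, log2 change 0.31, SE 0.070, adjusted p = 0.0048). Gatad2a (0.20, adjusted p = 0.0045) and Chd3 (0.24, adjusted p = 0.020) were higher as well. Sall4 was at 213 and 209.6 in WT against 178 and 167 in TKO (log2 change -0.29, adjusted p = 0.0014). The calls on Sall4 and Chd3 did not hold under every alternative that kept all libraries. Chd4, Hdac1, Mta1, Mta2 and Mta3 were lower by 0.16 to 0.24, and of these 5 none passed on deposited TPM. Hdac2 changed by -0.07 (adjusted p = 0.23), and its sign turned to 0.086 on deposited TPM (not passing) and to 0.11 after quantile normalisation (adjusted p = 0.019). Chd4 likewise turned from -0.16 to 0.079 after quantile normalisation.

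Outside these complexes, Chd2 (-0.33, adjusted p = 0.0073), Chd8 (-0.27, adjusted p = 0.011), Smarca5 (-0.25, adjusted p = 0.0031), Ino80 (-0.33, adjusted p = 0.0020) and Kat5 (-0.22, adjusted p = 0.0027) were lower at 4 h. None of these 5 passed on deposited TPM. Rnaseh2c, which overlaps Kat5 on the other strand, was also lower at 4 h (log2 change -0.36, limma adjusted p = 0.0059). So was Mrpl47, which overlaps Actl6a (-0.17, limma adjusted p = 0.016). Chd1, Chd7 and Ep400 did not pass at either time.

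Across the 2 times, 11 genes were lower in both comparisons and 2 were higher in both, and no gene passed in opposite directions. The 11 were Smarca4, Smarcb1, Smarcd1, Smarcd3, Actl6a, Phf10, Mbd3, Chd2, Chd8, Ino80 and Kat5, and the 2 were Chd3 and Gatad2a. Of these, Smarcb1, Smarcd1, Actl6a, Mbd3 and Gatad2a passed at both times under every alternative that kept all libraries. A further 13 passed at 4 h and 3 at 0 h (Smarcc2, Smarcd2 and Smarce1). Changes had the same sign at both times in 32 of 38 genes, with Pearson's r of 0.85 across them. This is a description over genes that share libraries and 1 fit. None of these counts was made over all genes. Over all genes tested, 27.8% and 28.2% passed as higher and lower at 0 h, and 29.1% and 30.3% at 4 h. How far the match between times is particular to the members was therefore not tested.

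The levels of paralogs relative to each other do not depend on the scaling of a library. Within the Smarcd set, Smarcd2 made up 33.8% and 35.1% of the TPM in WT at 0 h and 44.6% and 44.3% in TKO. The share of Smarcd1 was correspondingly 62.9% and 62.0% in WT against 53.3% and 52.9% in TKO. At 4 h, Smarcd2 was at 32.3% and 32.9% in WT against 42.5% and 44.1% in TKO, and the WT polyA libraries lay between 30.8% and 31.8%. All 4 TKO libraries therefore lay above all 7 WT libraries.

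The same order was seen for Mbd2 within the Mbd3 and Mbd2 pair. Its share was 9.57% and 11.2% in WT at 0 h, 8.6% and 8.58% in WT at 4 h, 14.2% and 14.4% in TKO at 0 h, and 14.3% and 12.7% in TKO at 4 h. Smarca2 held 0.35% to 0.49% of the ATPase pair in WT ribodepleted libraries and 0.99% to 1.18% in TKO. Among the pair of NuRD ATPases, Chd3 held 3.41% to 3.76% in WT and 4.61% to 4.88% in TKO ribodepleted libraries. The WT polyA libraries held 4.21% to 4.67% for Chd3 and so overlapped TKO, whereas for Mbd2 (8.61% to 9.04%) and Smarca2 (0.33% to 0.46%) they lay below every TKO library. These shares are descriptions and carry no test.

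Smarcc2 took 8.09% ± 0.47 of the Smarcc pair in WT at 0 h and 10.2% ± 0.46 in TKO (SD, n = 2), but the WT polyA libraries, at 11.2% to 12.6%, lay above every TKO library. Shares within the Mta set were close between genotypes, with Mta2 the most abundant at 56.1% ± 1.8 in WT and 54.7% ± 0.68 in TKO at 0 h. Hdac2 held 55.3% ± 0.53 of the deacetylase pair in WT and 58.5% ± 0.99 in TKO at 0 h. Arid1b held 16.3% ± 0.23 of the Arid1 pair in WT and 14.8% ± 0.82 in TKO, and Dpf1 28.1% ± 1.3 and 27.6% ± 1.3 of the Dpf set. Gatad2b was at 13.8% and 10.9% in the 2 WT libraries at 0 h and 9.49% and 10.1% in TKO, a gap between genotypes smaller than that between the WT libraries.

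**Figure D3:**
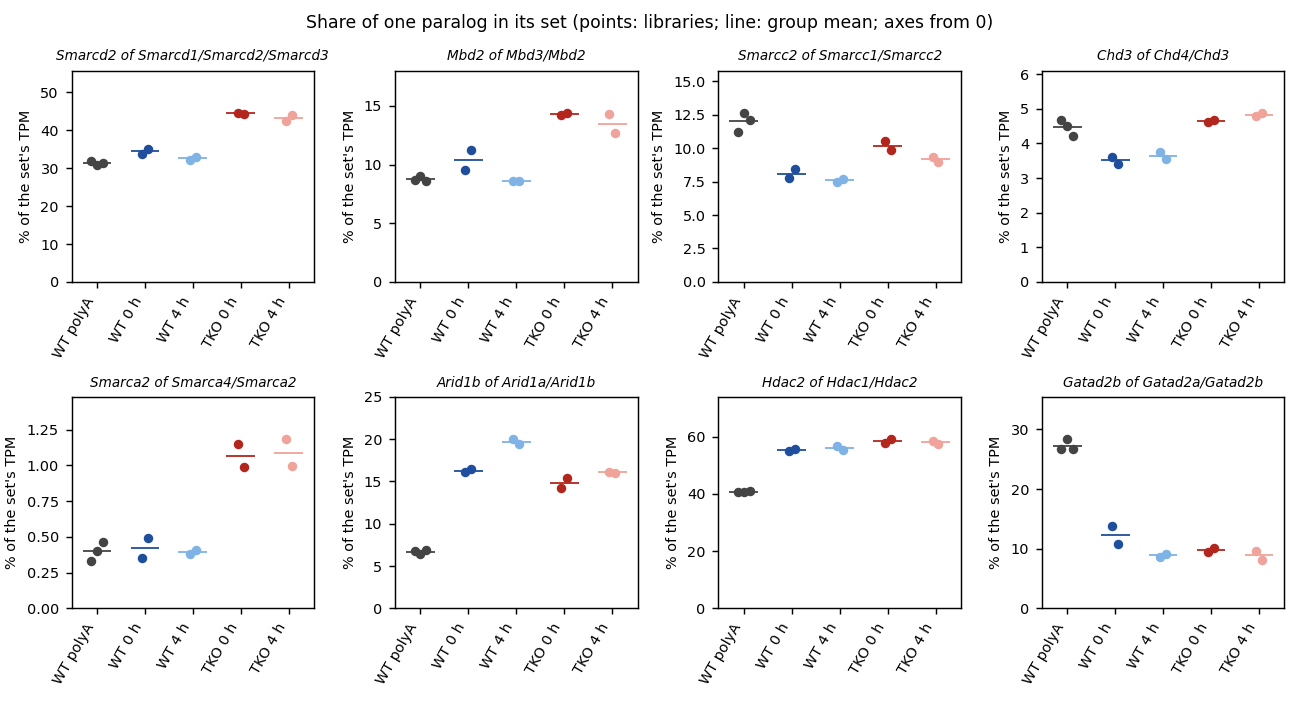
Share of 1 paralog in the summed TPM of its set in each of the 11 libraries (points) with the mean of each group (line), on linear axes from 0. TKO libraries lie above all WT ribodepleted libraries for Smarcd2, Mbd2, Smarcc2, Chd3, Smarca2 and Hdac2, and the WT polyA libraries lie above TKO for Smarcc2, overlap TKO for Chd3 and stand apart from all others for Arid1b, Hdac2 and Gatad2b.

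To follow the transcripts once polymerase II is inhibited, cells at 4 h were compared with cells at 0 h within each genotype. TPM is relative within a library, so these differences say how a transcript moved against the others and not whether it decayed. In WT, 17 of the 38 genes were higher at 4 h and 3 were lower, against 21.9% and 15.8% of all genes tested. None exceeded 1.5-fold, which 2.1% of all genes did. Over the 9672 genes with a mean above 5 scaled TPM, as 37 of the members had, 29.7% were higher and 18.7% lower. The median change was 0.15 for the members, 0.028 over all genes and 0.056 over those above 5 scaled TPM. All genes shifted to a median of -0.11 on deposited TPM, and 2 members passed as higher and 5 as lower, against 3.19% and 25.2% of all genes. After quantile normalisation 9 passed as higher and 1 as lower, against 12% and 11.3%. The share of Rpph1 and Rmrp in the deposited total was 14.7% and 14.5% in the WT libraries at 4 h, above both 0 h values.

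The higher genes in WT were 9 of 18 SWI/SNF subunits, 7 of 12 NuRD subunits and Smarca5. These 2 complexes also hold most of the tested members. Of all genes tested 21.9% were higher, and of those above 5 scaled TPM 29.7%. Smarcb1 was at 130 and 137 at 0 h and 167 and 177 at 4 h, a rise of 0.37 (SE 0.056, adjusted p = 0.0057) that passed under every alternative tried. Smarca4 was at 100.5 and 92.5 at 0 h and 121 and 117 at 4 h (0.30, adjusted p = 0.0067), and Hdac2 at 168 and 169 and then 208 and 201 (0.28, adjusted p = 0.0067). Smarcd3 had the largest rise, of 0.50 (SE 0.12, adjusted p = 0.016), while its antisense partner Chpf2 was lower (-0.29, adjusted p = 0.018). Chd4 (0.20, adjusted p = 0.016), Mbd3 (0.21, adjusted p = 0.029) and Smarcc1 (0.15, adjusted p = 0.033) rose as well. The sign of Smarcc1 turned to -0.0057 on deposited TPM, as that of Brd7 turned to -0.017, and neither passed there.

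The 3 lower genes in WT were Chd2, Gatad2b and Arid2. Chd2 was at 41.8 and 37.3 at 0 h and 27.5 and 28.1 at 4 h (log2 change -0.49, SE 0.081, adjusted p = 0.0062). Gatad2b was at 17.0 and 12.8 and then 10.5 and 11.8 (-0.37, adjusted p = 0.042), and Arid2 at 33.6 and 33.1 and then 28.9 and 29.4 (-0.19, adjusted p = 0.027). Chd1, Chd7, Chd8, Ino80, Ep400 and Kat5 lay between -0.07 and 0.02 and did not pass. The counts in WT rested on few libraries, and the share of all genes that passed fell as well in each of the fits that follow. Without WT replicate 1 at 4 h, 2 members passed, and without WT replicate 2 at 4 h or either WT replicate at 0 h, 10 did. Chd2 did not pass without WT replicate 1 at 4 h.

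In TKO cells, 0 of the 38 genes passed in limma, against 0% of all genes higher and 0.265% lower. At an unadjusted p under 0.05 there were 8 members and 3110 genes, and limma voom on recovered reads passed 1 member, Chd2. Chd2 was at 27.3 and 28.1 at 0 h and 23.8 and 20.2 at 4 h, with a log2 change of -0.32 (SE 0.081, adjusted p = 0.11 by limma on log values and 0.011 by voom). Smarcb1 was at 117 and 110 and then 118 and 127 (0.11, adjusted p = 0.26), and Smarca4 at 87.8 and 83.7 and then 89.7 and 91.3 (0.08, adjusted p = 0.36). The 2 TKO libraries at 4 h differed more from each other than those of the other ribodepleted groups, with a chi-square of 7.40 per degree of freedom against 1.53 to 4.32. Without TKO replicate 1 at 4 h, 10 members passed, 7 higher and 3 lower, and so did 12.7% of all genes as higher and 9.85% as lower.

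Whether the response to α-amanitin differed between genotypes was tested as an interaction. No member passed (smallest adjusted p = 0.66), and 0% of all genes did (smallest adjusted p = 0.53). At an unadjusted p under 0.05 there were 5 members (Smarca4, Smarcb1, Smarcd1, Mta3 and Sall4) and 938 genes, and voom gave 0 members as well. The interaction was below 0 for 32 of 38 members, with a median of -0.10, and for 6776 of 12467 genes, with a median of -0.015. For Smarcb1 it was -0.26, with a 95% interval from -0.44 to -0.081 before adjustment, and for Chd4 -0.12. The larger number of lower genes at 4 h than at 0 h is therefore not established as a difference in the response of any single gene.

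**Figure D4:**
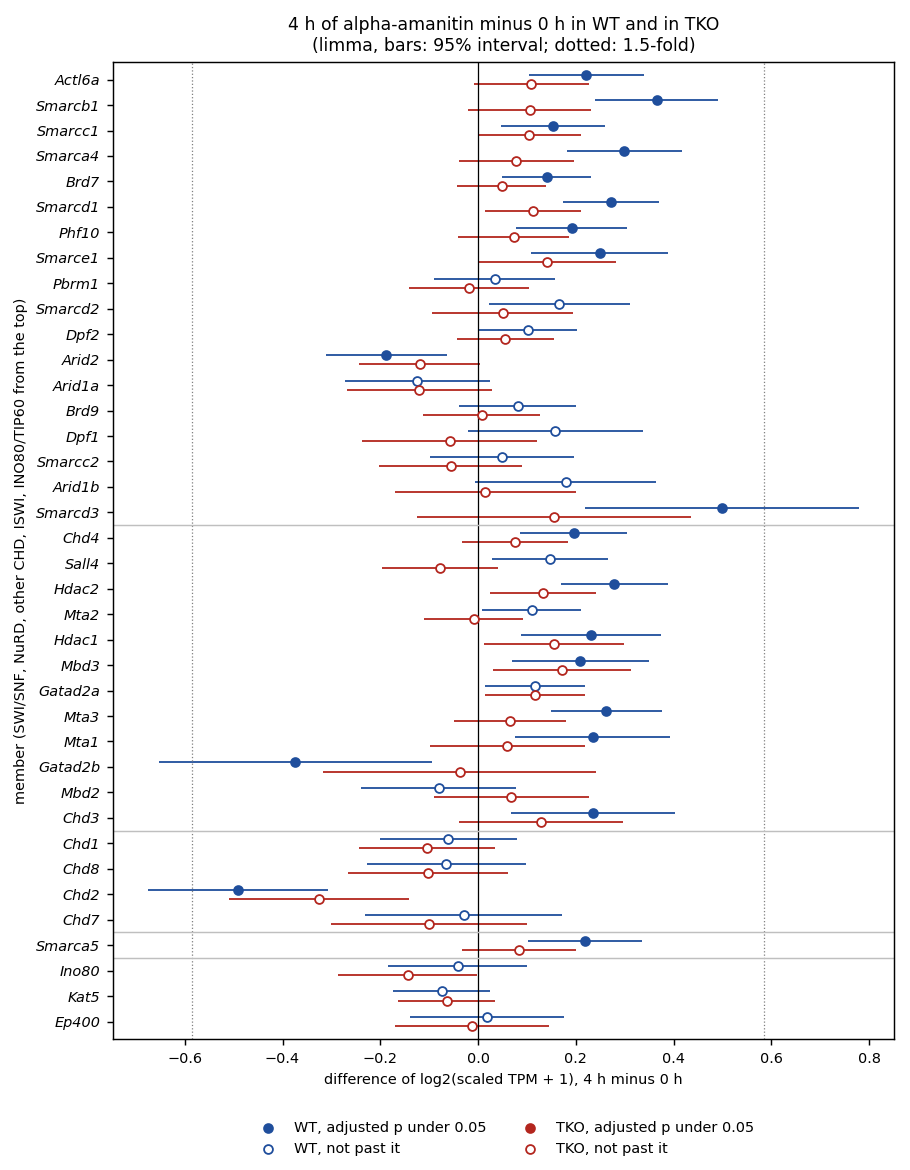
Difference of log2(scaled TPM + 1) between 4 h of α-amanitin and 0 h in WT (blue) and TKO (red) for the 38 tested genes, with 95% intervals from limma, filled where the adjusted p was under 0.05. In WT 17 genes are filled to the right of 0 and 3 to the left, and in TKO none is filled.

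PolyA and ribodepleted libraries of WT cells were compared to see how the choice of RNA sets these levels. Depth differed as well, and the labels name a library kit and sequencer for the polyA libraries alone, so other differences in preparation cannot be told apart from the selection of polyadenylated RNA. Of 38 genes, 14 were higher in polyA libraries and 18 were lower, against 40.2% and 40.8% of 12478 genes tested. Past 1.5-fold, 5 were higher and 3 were lower, against 18.7% and 16.4%.

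The largest difference was that of Arid1a, the large ARID subunit of BAF, at 88.5, 90.3 and 78.7 scaled TPM in polyA and 33.5 and 29.5 in ribodepleted libraries (log2 change 1.42, SE 0.071, adjusted p = 2.9e-07). Smarcd3 was at 10.9 ± 0.51 (n = 3) and 4.32 ± 0.43 (n = 2), a change of 1.16 (adjusted p = 8.6e-07), whereas Chpf2 on the other strand changed by -1.70 (adjusted p = 4.2e-08). Gatad2b was at 35.7 ± 2.3 and 15.7 ± 3.1 (1.15, adjusted p = 1.0e-05), Hdac1 at 298 ± 9.5 and 144 ± 2.5 (1.05, adjusted p = 5.9e-08), and Mbd3 at 195 ± 9.1 and 128 ± 5.5 (0.61, adjusted p = 4.6e-06). The 3 lower genes were Sall4, Chd1 and Chd7, all without overlap between library kinds. Sall4 was at 99.9 ± 2.3 in polyA and 201 ± 8.5 in ribodepleted libraries (-1.0, adjusted p = 8.7e-08), Chd1 at 44.7 ± 2.3 and 89.3 ± 5.9 (-0.98, adjusted p = 6.3e-07), and Chd7 at 13.3 ± 0.81 and 22.3 ± 2.5 (-0.70, adjusted p = 3.0e-05).

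Paralog shares moved with the kind of library too. Arid1b held 6.66% ± 0.26 of the Arid1 pair in polyA (SD, n = 3) and 16.3% ± 0.23 in ribodepleted libraries (n = 2), Gatad2b 27.2% ± 0.97 and 12.3% ± 2.1 of its pair, and Hdac2 40.8% ± 0.24 and 55.3% ± 0.53. Hdac1 was thus the more abundant deacetylase in polyA libraries and Hdac2 in ribodepleted ones. Smarcc2 held 12% ± 0.72 and 8.09% ± 0.47 of its pair, and Chd3 4.46% ± 0.23 and 3.51% ± 0.14. Smarcd1 was close between them, at 61.5% ± 0.18 and 62.5% ± 0.58.

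**Figure D5:**
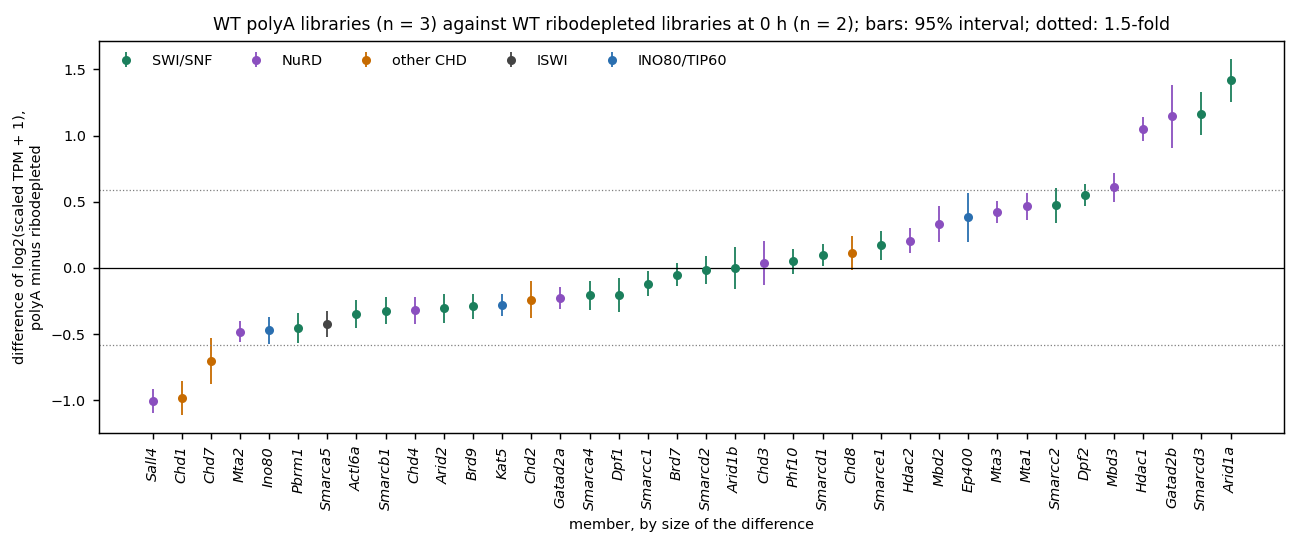
Difference of log2(scaled TPM + 1) between WT polyA (n = 3) and WT ribodepleted 0 h libraries (n = 2) for the 38 tested genes, ordered by size and coloured by complex, with 95% intervals from limma. Arid1a, Smarcd3, Gatad2b, Hdac1 and Mbd3 lie above the upper dotted line at 1.5-fold, and Sall4, Chd1 and Chd7 below the lower one.

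Further remodelling genes were read from a list of 61, mostly other subunits of the same complexes with 3 further CHD enzymes and 6 SNF2-family enzymes outside them, and 59 were tested. In TKO at 0 h, 7 were higher and 31 were lower, against 27.8% and 28.2% of all genes, with a median change of -0.16 against -0.019. Over genes above 5 scaled TPM, 26% were higher and 31.7% lower, at a median of -0.042. Past 1.5-fold at 0 h, 1 of the list was higher and 2 were lower, against 15.9% of all genes in either direction. At 4 h 9 were higher and 31 lower, against 29.1% and 30.3% of all genes and 26.6% and 34.9% of those above 5 scaled TPM. All values of this list are with size factors. Counts under the other scalings, with which the split of the members moved, are not given for it. Of the 7 further NuRD genes, 6 were lower at both times, among them the histone chaperones Rbbp4 (214 and 220 in WT, 170 and 169 in TKO at 0 h, log2 change -0.35, adjusted p = 4.0e-04) and Rbbp7 (-0.24, adjusted p = 0.0022), and the demethylase Kdm1a (-0.43, adjusted p = 2.0e-04). Zmynd8 was higher (0.19, adjusted p = 0.0070).

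Of the 26 further INO80, TIP60 and SRCAP genes, 14 (53.8%) were lower and 1 was higher at 0 h, when 28.2% of all genes were lower and 27.8% higher. The AAA+ ATPase Ruvbl1 fell from 266 and 268 in WT to 144 and 145 in TKO (log2 change -0.88, SE 0.058, adjusted p = 6.4e-06), and its partner Ruvbl2 was lower by 0.44 (adjusted p = 3.7e-04). Ino80b was higher, at 16.4 and 15.6 in WT against 23.2 and 26.0 in TKO (0.59, adjusted p = 1.2e-04). Smarca1, the second ISWI ATPase, had the largest difference on the list, at 14.5 and 14.2 in WT against 6.84 and 6.90 in TKO (-0.97, SE 0.060, adjusted p = 4.7e-06). The ISWI partners Baz1a (0.39, adjusted p = 3.8e-04) and Bptf (0.31, adjusted p = 0.0011) were higher. Of the 10 further ISWI genes, 3 were higher and 3 lower. The lower ones were Smarca1, Baz1b (-0.21, adjusted p = 0.026) and Chrac1 (-0.30, adjusted p = 0.0019). Among the 6 SNF2-family enzymes outside these complexes, Atrx (0.56, adjusted p = 3.5e-04) and Smarcad1 (0.48, adjusted p = 3.2e-04) were higher. The other 4 passed as lower, namely Hells (-0.28), Ercc6 (-0.33), Rad54l (-0.24) and Shprh (-0.19). Ruvbl1 and Smarca1 were past 1.5-fold at 4 h as well.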

How the data were processed

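RNA-seq of 11 mouse ESC libraries was analysed. The deposited values are TPM per gene. According to the methods, the authors removed low-complexity reads with AfterQC and ribosomal or transfer RNA with Bowtie2, trimmed with Trimmomatic, aligned with STAR to mm9, and counted RefSeq genes with HTSeq. The conversion to TPM is described for the polyA libraries. Versions, the strand setting and the treatment of reads with several hits are not given in the sources used here, so overlapping genes and genes with near copies (such as Smarca5, with an annotated pseudogene) are uncertain.

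TPM of the 8 ribodepleted libraries was divided by median-of-ratios size factors, and limma 3.58.1 (trend, R 4.3.3) was run on log2(scaled TPM + 1) with 1 coefficient per group, for genes with a mean scaled TPM above 1. WT polyA and WT 0 h libraries formed a second fit. P-values are two-sided and Benjamini-Hochberg adjusted over all genes tested. A gene passed at an adjusted p under 0.05, and a change past 1.5-fold was counted in addition. The study tested raw counts, and a count model cannot be applied to TPM. Whole reads were recovered from the steps of the TPM values for 100% of genes (tolerance 0.01 reads, up to a divisor common to the libraries of a gene) and served for depth, for the comparison of replicates and for limma voom as an alternative. They cover counting error only. No pair of replicates agreed within counting noise (chi-square per degree of freedom at least 1.53), so none was merged. The fit was also run on simulated reads with the same small spread for every gene and library. The real replicate pairs differed in spread, so that run does not vouch for the p-values given here.

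Same-numbered libraries deviated from their group means with correlations of -0.039 to 0.11 across genes, so the numbers were not taken to pair samples. Promoter windows and exon overlaps came from GENCODE M1 on NCBIM37, in which all 41 symbols matched. Genes named in the text were the ATPases and Kat5, Smarcc1, Mbd3, the paralog sets, every member past 1.5-fold, and the extremes of SWI/SNF and NuRD, with further subunits by their largest changes. The others, and the overlapping neighbours, were named after their values were seen. The summed level of the neural markers is not reported here. The members and lists were chosen with earlier results of these data known. Alternatives were deposited TPM, quantile normalisation, pseudocounts of 0.1 and 5 TPM, no filter, a filter at 5 TPM, a replicate block, voom, a fit of the 2 groups compared, and leaving out each library.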

Additional observations from a re-analysis of the deposited data

How the results depend on the processing

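With 2 libraries per group, counts of passing genes depend on single libraries, and leaving one out leaves 1 library in its group, which is then assumed to vary like the others. Counts with all libraries were 16 (TKO against WT at 0 h), 26 (at 4 h), 20 (α-amanitin in WT), 0 (α-amanitin in TKO), 0 (interaction) and 32 (polyA). Leaving out 1 library gave ranges of 9 to 20, 17 to 26, 2 to 23, 0 to 10, 0 to 0 and 29 to 32. With the replicate block the counts were 17, 26, 22, 0, 0 and 31, with no call past 1.5-fold gained or lost except 1 fewer of 8 in the polyA comparison. Deposited TPM gave 14 at 4 h and 7 for α-amanitin in WT, quantile normalisation gave 10 for the latter, and voom gave 1 for α-amanitin in TKO. Past 1.5-fold, the count of 1 at 4 h became 0 with a pseudocount of 5 TPM and with the filter at 5 TPM, which removes Smarcd3. The count of 0 for α-amanitin in WT became 1 on deposited TPM (Chd2, lower), with a pseudocount of 0.1 TPM and with voom (Smarcd3, higher, in both). Signs turned for Chd4 (0.079, not passing) and Hdac2 (0.11, passing) at 4 h after quantile normalisation, and for Smarcc1 (-0.0057) and Brd7 (-0.017) for α-amanitin in WT on deposited TPM. The cause of these changes was not tested. Over single genes and alternatives, 3306 values kept direction and side of the threshold, 133 that did not pass in either case turned sign, 190 no longer passed and 67 passed in addition.

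Depth limits Dpf3 and Actl6b, with at most 5 recovered reads per ribodepleted library, Smarca2 (31 to 100) and Smarcd3 (70 to 148). TPM cannot show a change shared by all transcripts, and many calls depend on which scaling is taken as the reference: calls lost on deposited TPM or after quantile normalisation had changes of up to 0.38 at 0 h, 0.33 at 4 h and 0.50 for α-amanitin in WT.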
